A study of Homo sapiens with 6 samples.

Results

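Calcium pumps, calcium release channels and the calcium sensor of the endoplasmic reticulum (ER) were examined in SH-SY5Y cells exposed to unconjugated bilirubin for 1 h. The set holds 9 genes, *ATP2A2*, *ATP2A3*, *ATP2B1*, *ATP2B4*, *ATP2C1*, *ITPR1*, *ITPR2*, *ITPR3* and *STIM1*, of the 11963 genes that had a probe set of their own. A probe set, the group of short oligonucleotides by which the array reads a transcript, was taken when its annotation gave exactly 1 gene symbol and that symbol was among the 9. The rule itself uses no measured values and gave 28 of 22215 probe sets, but the 9 genes were chosen with earlier results of these data known. *ATP2A3*, *ATP2C1* and *ITPR2* had 4 each, *STIM1* had 1 and the other 5 genes had 3 each.

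SH-SY5Y is a human neuroblastoma cell line, and 6 Affymetrix arrays of its RNA were analyzed. The biological replicates of each group are numbered 1 to 3. In 1 group, 3 samples were treated with free bilirubin at 140 nM (Bf 140 nM), the fraction of the pigment not bound to albumin. In the other, 3 samples received 0.6% of the solvent dimethyl sulfoxide (DMSO 0.6%). By the study's methods the bilirubin was itself dissolved in 0.6% DMSO, so both groups received the solvent. A tumor line stands in for neurons here, and fewer cells of a kind and less RNA per cell cannot be told apart in such bulk RNA. Of 15 noradrenergic neuroblastoma markers, 13 had a probe set, and 11 of these lay above the array median on all 6 arrays. *TH* and *HAND2* were the exceptions, and both group means of *TH* lay below the lower quartile of every array. Of 15 mesenchymal markers, 11 also lay above the median on all 6 arrays, so these counts do not tell noradrenergic from mesenchymal cells. The share of all genes that did so was not counted.

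The cytosol of a neuron holds far less free calcium than the ER or the medium, and ATP-driven pumps keep it so. The SERCA pumps (*ATP2A* genes) load the ER, the PMCA pumps (*ATP2B* genes) export calcium across the plasma membrane, and the SPCA pump (*ATP2C1*) loads the Golgi apparatus with calcium and manganese. Receptors for inositol trisphosphate (IP3), encoded by the *ITPR* genes, release calcium from the ER, and STIM1 senses the fall in ER calcium and opens the ORAI channels of the plasma membrane. Folding enzymes of the ER need calcium, so that emptying this store is a classical trigger of ER stress.

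After 1 h, none of the 9 genes differed detectably between Bf 140 nM and DMSO 0.6%. By limma, at an adjusted p under 0.10, 0 of the 28 probe sets were called higher and 0 lower, as were 0 of all 22215 (0% in each direction), and SAM, the test named in the study's methods, called 0 as well. At an unadjusted p under 0.05 there were 0 of 28, against 0.099% of all probe sets. With the replicate number as a block 0 of 28 were higher and 0 lower at that level, against 0.941% and 0.275% of all. These shares of all probe sets lie below the 0.05 that the threshold gives when nothing differs and the assumptions of the test hold. The tests were thus conservative here, and a count of 0 of 28 tells little about the members. The differences lay between -0.18 and 0.09 log2, with a median of 0.01, where the median of all probe sets was 0.01 too. Their median size was 0.03 log2, against 0.05 over all probe sets. On none of the 28 did the 3 Bf arrays all lie above or all below the 3 DMSO arrays, which happened for 2.06% and 0.59% of all probe sets.

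Values are on the generalized log2 scale of the authors' variance-stabilizing normalization (VSN), where 1 unit stands for 2-fold at bright probe sets and for more than that near background. Base 2 follows from the method and is not stated with the values. Probe sets differ in how well they hybridize, so a level given against other probe sets is a rank of signal, and no order of transcript amounts. Distance from background was not measured. Of the 28, 3 fell in the top quartile of all probe sets by mean level, 12 below the median and 2 in the lowest quartile.

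**Figure D1:**
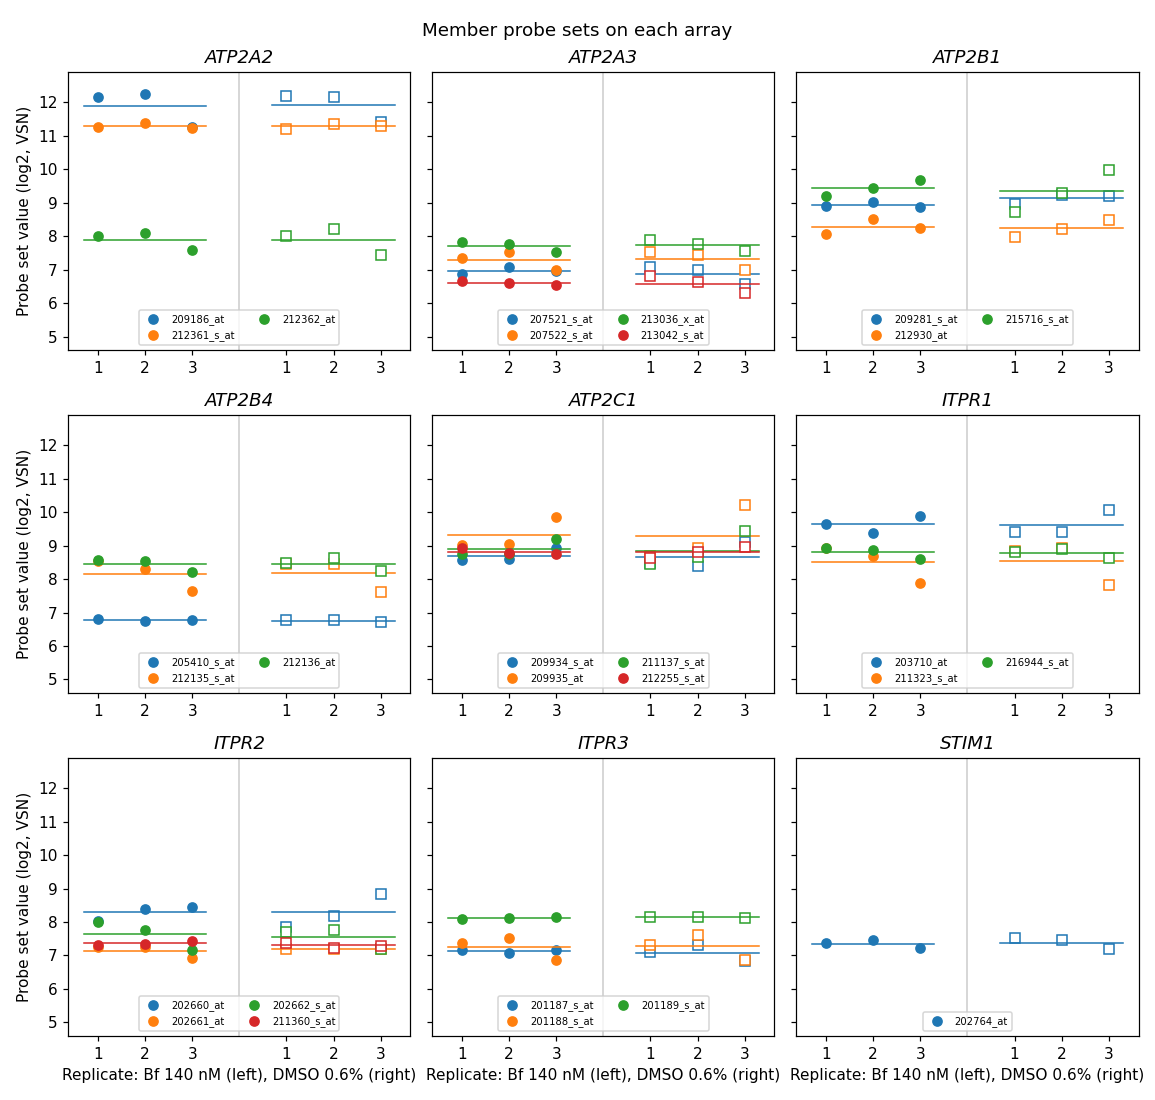
Value of each member probe set on each of the 6 arrays, on the log2 VSN scale, 1 panel per gene and 1 color per probe set. Filled circles are Bf 140 nM and open squares DMSO 0.6%, by replicate number, and horizontal lines are the group means of 3 arrays. The lines of the treatments lie within 0.18 log2 of each other, while replicate 3 leaves the other replicates by up to 1.38 log2.

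*ATP2A2* encodes SERCA2, the housekeeping pump of the ER, mutated in Darier disease. Its probe set 209186_at had 12.15, 12.24 and 11.26 in Bf 140 nM replicates 1, 2 and 3, against 12.17, 12.16 and 11.41 in DMSO 0.6%. Both replicate 3 arrays were low and the treatments overlapped. The difference was -0.03 log2 (95% confidence interval -0.83 to 0.76, and so in parentheses after each difference below). On 212361_s_at the values were 11.24, 11.36 and 11.21 in Bf 140 nM and 11.18, 11.34 and 11.29 in DMSO 0.6%. No array stood apart on this bright probe set, and the difference of 0.00 log2 had an interval of -0.22 to 0.22. The dimmer 212362_at had 8.00, 8.09 and 7.58 in Bf 140 nM and 8.01, 8.21 and 7.42 in DMSO 0.6%, with a difference of 0.01 log2 (-0.58 to 0.59).

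Promoters were searched for the ER stress element (ERSE), through which the unfolded protein response acts on ER chaperone genes. RefSeq promoter windows from 250 bases before to 50 after a start (GRCh38.p14) were at hand for 7 of the 9 genes, 14 windows in all, and not for *ATP2A3* and *ITPR2*. The element, CCAAT and CCACG with 9 bases between them on either strand, occurred in 0 of the 14 and in 0.0769% of all 35116 windows. The parts alone are common: CCAAT occurred in 2 of the 14 windows and in 34.6% of all, CCACG in 4 of the 14 and in 38.1% of all. The share of all windows that hold both parts was not counted. One window of *ATP2A2* held both parts of the element, apart by 77 bases and with CCACG on the other strand. It is shown because SERCA2 refills the store whose loss triggers ER stress, with these parts in capitals (chr12:110281097-110281193, plus strand).
ATP2A2: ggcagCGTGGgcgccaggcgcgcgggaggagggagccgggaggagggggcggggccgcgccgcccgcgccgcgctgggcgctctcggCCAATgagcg
A window of *STIM1* also held both parts, apart by 167 bases. These letters are a description of the windows, and nothing about a factor follows from them.

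*ATP2A3* encodes SERCA3, a pump of lower calcium affinity known from blood, epithelial and endocrine cells. All 4 of its probe sets lay below the median of the array. On 213036_x_at, the brightest, Bf 140 nM gave 7.81, 7.75 and 7.52 and DMSO 0.6% gave 7.87, 7.75 and 7.54. The differences of the 4 probe sets ranged from -0.03 to 0.08 log2, 2 of them positive and 2 negative. The highest, on 207521_s_at, came from -0.21, 0.08 and 0.38 log2 in replicate pairs 1, 2 and 3, so that the sign was not shared by the pairs. The ending _x_at marks probes that can bind other transcripts.

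*ATP2B1*, which encodes PMCA1, the plasma membrane pump found in most cells, held the largest difference of the 28. On 209281_s_at the values were 8.91, 9.03 and 8.87 in Bf 140 nM, against 8.95, 9.21 and 9.19 in DMSO 0.6%. Bf was below DMSO in each pair, by -0.03, -0.18 and -0.32 log2, but the highest Bf array exceeded the lowest DMSO array. The mean difference was -0.18 log2 (95% confidence interval -0.44 to 0.08, adjusted p = 1.00 from limma, exact two-sided permutation p = 0.2, where 0.1 is the smallest that 3 arrays against 3 allow). With a block for replicate number, the interval was -0.37 to 0.01 and the adjusted p = 1.00 from limma. This was the 1 probe set of the 28 with a negative difference in all 3 pairs, against 5.83% of all probe sets, and 0 were positive in all 3, against 11.8%.

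The other *ATP2B1* probe sets went the other way. On 215716_s_at Bf 140 nM had 9.18, 9.43 and 9.66 and DMSO 0.6% had 8.72, 9.29 and 9.97. The pairs differed by 0.45, 0.14 and -0.31 log2, with a mean of 0.09 (-0.67 to 0.86). On 212930_at the pairs differed by 0.08, 0.30 and -0.25 log2, with a mean of 0.04 (-0.38 to 0.47). The 3 probe sets of *ATP2B1* thus spanned 0.27 log2 in their differences, the widest span of any of the 8 genes with several probe sets, where the median span was 0.06.

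*ATP2B4* encodes PMCA4, the other widely expressed plasma membrane pump. On 212136_at Bf 140 nM had 8.57, 8.54 and 8.21 and DMSO 0.6% had 8.49, 8.64 and 8.24, a difference of -0.02 log2 (-0.38 to 0.35). On 212135_s_at the values were 8.54, 8.29 and 7.65 in Bf 140 nM and 8.46, 8.45 and 7.60 in DMSO 0.6%. Replicate 3 was low in both treatments, and the difference was -0.01 log2 (-0.78 to 0.77). The third probe set, 205410_s_at, lay in the lowest quartile of levels and kept within 6.73 and 6.81 on all 6 arrays.

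*ATP2C1* encodes SPCA1, the pump of the Golgi apparatus, mutated in Hailey-Hailey disease. Its 4 probe sets had differences of 0.02 to 0.05 log2, and it was the 1 gene of the 8 whose probe sets all had the same sign. On 209935_at the values were 9.01, 9.04 and 9.86 in Bf 140 nM, against 8.70, 8.92 and 10.20 in DMSO 0.6%. Both replicate 3 arrays were high, and the DMSO array of that number was the highest of the 6. The pairs differed by 0.30, 0.12 and -0.33 log2, and the interval of the mean, -1.04 to 1.10, was the widest of the 28. Without the DMSO array of replicate 3 the difference of this probe set became 0.49 log2, and without the Bf array of replicate 3 it became -0.25. On 212255_s_at, which replicate 3 left nearly in place, the difference was 0.02 log2 (-0.25 to 0.30).

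**Figure D2:**
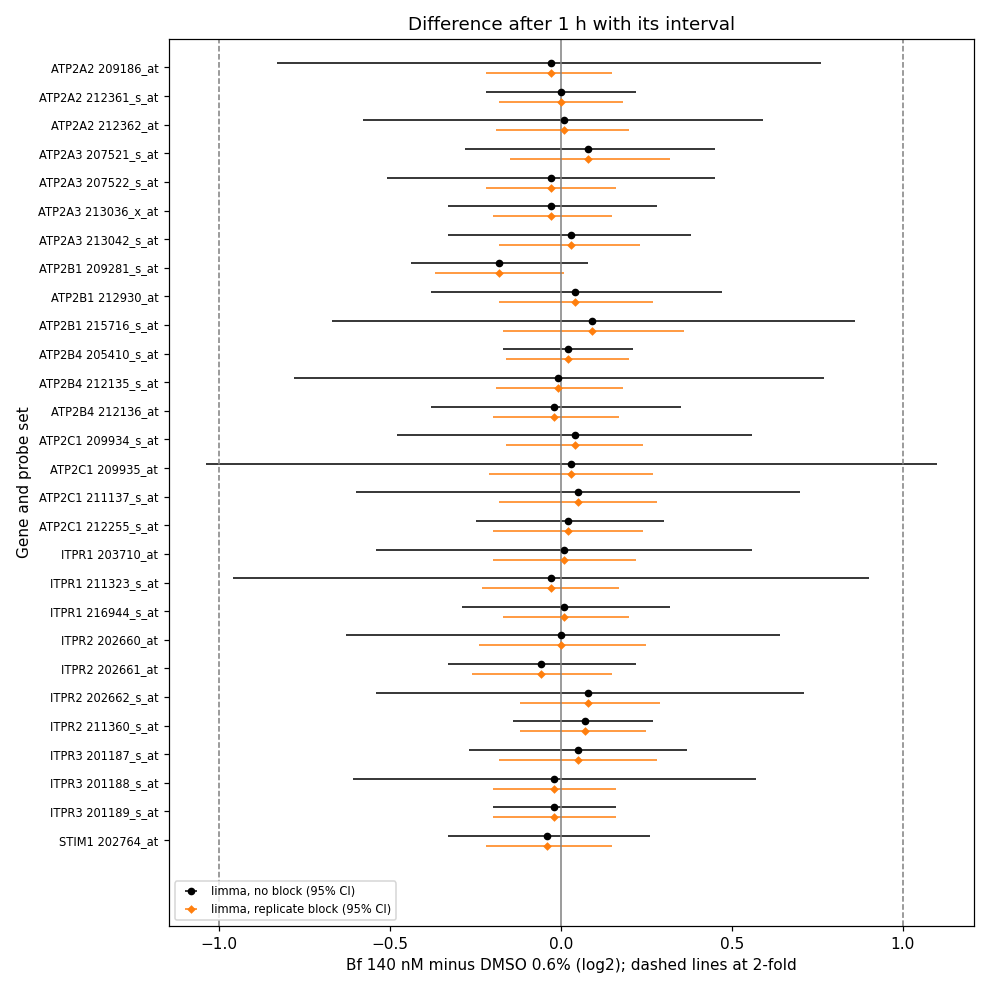
Bf 140 nM minus DMSO 0.6%, in log2 units (horizontal axis), for each of the 28 probe sets (vertical axis). Black circles and lines are the means of limma (n = 3 each) with their 95% intervals, orange diamonds the same with the replicate number as a block, and dashed lines mark 2-fold. The differences lie between -0.18 and 0.09, and the interval of *ATP2C1* 209935_at without the block is the one that reaches past the dashed lines.

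*ITPR1* encodes the IP3 receptor best known from the brain, most of all from Purkinje cells. On 203710_at Bf 140 nM had 9.64, 9.37 and 9.87 and DMSO 0.6% had 9.40, 9.39 and 10.07. Replicate 3 was high in both treatments, and the difference was 0.01 log2 (-0.54 to 0.56). On 211323_s_at the values were 8.93, 8.68 and 7.89 in Bf 140 nM and 8.83, 8.93 and 7.83 in DMSO 0.6%. Here replicate 3 was low in both treatments, and the difference was -0.03 log2 (-0.96 to 0.90). On 216944_s_at the difference was 0.01 log2 (-0.29 to 0.32).

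*ITPR2*, the receptor prominent in liver and heart muscle, gave differences of -0.06 to 0.08 log2 on 4 probe sets, 3 positive and 1 negative. On 202660_at Bf 140 nM had 8.04, 8.38 and 8.45 and DMSO 0.6% had 7.85, 8.18 and 8.83. The pairs differed by 0.20, 0.20 and -0.38 log2, which average to 0.00 (-0.63 to 0.64). On 202662_s_at the values were 8.00, 7.75 and 7.15 in Bf 140 nM and 7.70, 7.76 and 7.19 in DMSO 0.6%, a difference of 0.08 log2 (-0.54 to 0.71).

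*ITPR3*, the receptor common in epithelial and secretory cells, was the steadiest of the set on 201189_s_at. This probe set had 8.10, 8.11 and 8.15 in Bf 140 nM and 8.14, 8.15 and 8.13 in DMSO 0.6%. The treatments overlapped, and the difference was -0.02 log2 (-0.20 to 0.16). The other 2 probe sets differed by 0.05 and -0.02 log2.

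*STIM1*, the calcium sensor in the ER membrane, had 7.37, 7.45 and 7.22 in Bf 140 nM, against 7.52, 7.45 and 7.18 in DMSO 0.6%, on its single probe set 202764_at. The difference was -0.04 log2 (-0.33 to 0.26), and the level lay below the array median, where VSN compresses folds.

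What these arrays could exclude was set by the spread of the replicates. The 95% confidence interval excluded a 2-fold change on this scale for 27 of the 28 probe sets, the exception being *ATP2C1* 209935_at. It excluded a 1.5-fold change for 18. Over all 22215 probe sets these counts were 21187 and 17669. When replicate number entered as a block, the interval excluded a 1.5-fold change on this scale for all 28, and for 22194 of all 22215. The block takes the numbers as pairs, which is not settled. Of the 28, 12 lay below the median level, and dim probe sets understate folds. The median half-width was 0.40 log2 without the block, against 0.31 over all probe sets, and 0.20 with it, against 0.19.

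The probe sets with the widest intervals, *ATP2C1* 209935_at and *ITPR1* 211323_s_at, were those with the largest shifts in replicate 3, whose arrays also stood apart over all probe sets. The excess of the 3′ over the 5′ probe set of the actin control, a sign of shortened RNA or cDNA, was 1.49 log2 on the Bf array and 1.90 log2 on the DMSO array of this number, against 0.10 to 0.50 log2 on the other 4 arrays. Both replicate 3 arrays lay above the other 4 on 6 of the 28 probe sets (21.4%) and below them on 12 (42.9%). Over all probe sets these shares were 18.9% and 34.1%, in the same order as among the members. The part of RNA quality in these shifts was not tested.

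Probe sets of 1 gene shifted in opposite directions in replicate 3. For *ITPR1*, replicate 3 minus the mean of replicates 1 and 2 was 0.36 log2 in Bf 140 nM and 0.67 in DMSO 0.6% on 203710_at, but -0.92 and -1.05 on 211323_s_at. For *ITPR2* it was 0.23 and 0.82 on 202660_at, but -0.73 and -0.54 on 202662_s_at. The 3 *ATP2C1* probe sets that left the range of the other arrays all lay above it, with replicate 3 minus the mean of replicates 1 and 2 at 0.34 to 0.84 log2 in Bf 140 nM and 0.68 to 1.38 in DMSO 0.6%. Those of *ATP2A2*, *ATP2A3*, *ATP2B4*, *ITPR3* and *STIM1* that left it all lay below it. The sign of the shift was shared by the treatments on 19 of the 28 probe sets (67.9%), against 77.1% of all.

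**Figure D3:**
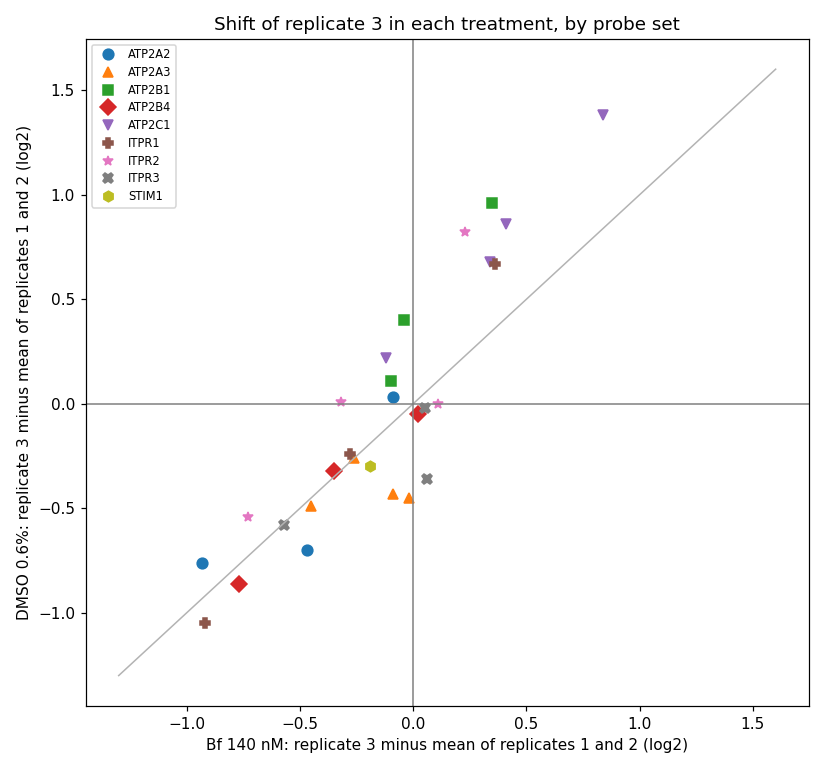
Replicate 3 minus the mean of replicates 1 and 2 on the log2 scale, in Bf 140 nM (horizontal axis) and in DMSO 0.6% (vertical axis), 1 point per member probe set and 1 symbol per gene. The diagonal marks equal shifts in both treatments. The shifts run from -1.05 to 1.38 log2, with *ITPR1* and *ITPR2* holding points in both corners and *ATP2C1* at the upper right.

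Without both replicate 3 arrays the 28 differences lay between -0.11 and 0.30 log2, with a median of 0.01, and 0 passed. The 0.30 was that of *ATP2B1* 215716_s_at. In pair 3 Bf was below DMSO on all 4 *ATP2C1* and all 3 *ATP2B1* probe sets, by -0.33 to -0.18 and by -0.32 to -0.25 log2. In pair 1 all 4 *ATP2C1* probe sets were above, by 0.10 to 0.31 log2. The members did not share the sign in pair 3, where *ATP2A3* 207521_s_at had 0.38 log2. The median over the 28 was -0.03 log2 in pair 3 and 0.06 in pair 1, against 0.03 and 0.02 over all probe sets. How many genes share a sign in this way was not counted. In pair 3 the DMSO array had the larger actin difference, as given above. Whether this bears on the signs of the *ATP2C1* and *ATP2B1* probe sets was not tested.

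The closest followers of the members, by the root mean square difference of deviations from the own mean over 6 arrays, were named for the brightest probe set of each gene. They were *PGK1* for *ATP2A2* at 0.031 log2, *FGFR2* for *ATP2A3* at 0.019, *RB1CC1* for *ATP2B1* at 0.057, *PIR* for *ATP2B4* at 0.019 and *SEC23B* for *ATP2C1* at 0.019. For the remaining genes they were *GALNT1* for *ITPR1* at 0.026, *LYPLA1* for *ITPR2* at 0.041, *CAPN9* for *ITPR3* at 0.012 and *POFUT2* for *STIM1* at 0.014. Each is the nearest of 19060 to 19063 probe sets of other genes on 6 arrays, so a small distance was bound to be found. The median probe set lay 0.14 to 0.59 log2 away, and this contrast tells nothing about shared control. Where a member shifted in replicate 3, that shift enters the distance. The probe set of *ITPR3* hardly moved (SD 0.02 log2 over the 6 arrays), so its nearest one is merely another that hardly moved.

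Other genes of calcium handling were counted on the brightest probe set of each gene, in 5 lists. None held a gene called higher or lower by limma, and 0 of all 11963 genes were. At an unadjusted p under 0.05 there were 0 genes in each list. With the replicate block there were 2 of 25 in the list of calcium sensors, *NCS1* and *HPCA*, and 0 in the other 4, against 0.828% of all genes. The groups did not overlap for 1 gene in each of 3 lists, *RYR2*, *IMPA2* and *HPCA*, against 2.38% of all genes. These were dim probe sets. Both group means of *RYR2* and *IMPA2* lay below the lower quartile of every array (6.74 to 6.95), and those of *HPCA* below every array median (7.73 to 7.97). List medians were 0.01 to 0.04 log2, where the median of all genes was 0.01.

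Among 7 further pumps, ryanodine receptors and related channels, *RYR2*, the ryanodine receptor of heart and brain, was at 6.34 ± 0.12 in Bf 140 nM and 6.52 ± 0.05 in DMSO 0.6% (SD, n = 3 each). Its difference was -0.18 log2 (-0.41 to 0.05), with -0.16, -0.09 and -0.30 in pairs 1, 2 and 3, and those of *ATP2B2*, a plasma membrane pump, and *ATP2C2*, a Golgi pump, were 0.07 and 0.04. Of 26 calcium buffers of the ER and regulators of pumps and release, *PDIA3*, a disulfide isomerase, differed by -0.12, *FKBP1A*, which binds release channels, by -0.24 (-0.86 to 0.39), and *CASQ2*, the cardiac calsequestrin, by 0.06 log2. For *FKBP1A* the pairs differed by -0.10, 0.11 and -0.71 log2.

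Of 17 genes of calcium entry, exchange and mitochondrial uptake, *LETM1*, a protein of the inner mitochondrial membrane, differed by -0.08 (pairs of -0.16, -0.03 and -0.06), *SLC24A1*, a sodium, calcium and potassium exchanger, by 0.08 and *TRPC6*, a cation channel of the plasma membrane, by 0.08 log2. In the 17 genes that make or remove IP3, *IMPA2*, an inositol monophosphatase, differed by 0.14 (pairs of 0.07, 0.10 and 0.27), *ITPKC*, a kinase of IP3, by 0.11 and *INPP1*, an inositol phosphatase, by 0.10 log2. In the 25 sensors and calmodulin effectors, *NCS1*, a neuronal calcium sensor, was at 8.97 ± 0.20 in Bf 140 nM and 8.72 ± 0.10 in DMSO 0.6% (SD, n = 3 each). Its difference of 0.25 log2 (-0.05 to 0.56) came from pairs of 0.27, -0.05 and 0.54, and its interval with the block was 0.02 to 0.49. *HPCA*, or hippocalcin, differed by 0.19 log2 (-0.06 to 0.44), with pairs of 0.12, 0.17 and 0.29 and an interval of 0.01 to 0.37 with the block. *RCAN2*, a regulator of calcineurin, differed by 0.15 log2 (-0.09 to 0.40), at means of 6.11 and 5.96, below the lower quartile of every array. All of these had an adjusted p = 1.00 from limma, and *NCS1* and *HPCA* had it with the block as well.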

How the data were processed

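RNA of 6 SH-SY5Y samples was hybridized to Affymetrix GeneChip arrays of human transcripts. Cell intensities came from GCOS, and the deposited log2 values, 1 per probe set and array, are the authors' VSN output (vsn library, R 2.5.0). How probes were summarized, which arrays were normalized together and the genome build are not given in the sources used here. The number of arrays limits the precision. Controls (62) were left out, and 22215 probe sets were tested without a filter. Of these 19064 carried 1 symbol, 1043 several and 2108 none, and names were checked against RefSeq (0 updates).

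Fits used limma 3.58.1 in R 4.3.3 (lmFit, eBayes, Benjamini-Hochberg over all probe sets, adjusted p under 0.10), unpaired, because no pairing is stated in the methods, and were tested on simulated data. SAM was rewritten with all 20 label permutations. Same-numbered arrays deviated together from their group means (correlations of 0.72, 0.78 and 0.88 across probe sets). Deviations from a group mean cancel within the group, so a shift of replicate 3 in both groups can also raise the other correlations. They therefore do not settle whether the numbers pair the samples, and they were not taken without replicate 3. Without both replicate 3 arrays, 19 of all probe sets were called higher and 6 lower with the block, against 0 and 0 without it. This fit of 4 arrays was not a test of pairing. The members and lists were chosen with earlier results of these data known. Named genes were all members, the 3 smallest p values of each list, and the nearest follower of each member. Alternatives were the replicate block, normalization, filters, variance settings, array weights, thresholds, SAM and leaving out arrays. Mesenchymal markers (15 measured, 11 above the array median on all 6 arrays) had a median difference of -0.02 log2.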

Additional observations from a re-analysis of the deposited data

How the results depend on the processing

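In each alternative run, the count of member probe sets called stayed at 0 higher and 0 lower: both filters on level, quantile normalization, the replicate block, equal medians of the arrays, trend and robust settings, array weights, thresholds of 0.05 and 0.20, SAM, and leaving out each array or both replicate 3 arrays. With all 6 arrays, the replicate block changed no call. Over all probe sets, 19 were called higher and 6 lower without both replicate 3 arrays and with the replicate block, a fit of 4 arrays, and 0 in every other setting run. Leaving out 1 array moved the members' median difference between -0.07 (without DMSO 0.6% replicate 3, -0.066) and 0.05 log2 (without Bf 140 nM replicate 3, 0.053). It turned the sign of the brightest probe set of 8 genes, *ITPR3* excepted, with ranges of -0.28 to 0.28 for *ATP2A2*, -0.11 to 0.06 for *ATP2A3*, -0.21 to 0.41 for *ATP2B1*, -0.12 to 0.10 for *ATP2B4*, -0.25 to 0.49 for *ATP2C1*, -0.11 to 0.23 for *ITPR1*, -0.21 to 0.28 for *ITPR2*, -0.14 to 0.03 for *STIM1* and -0.03 to -0.01 for *ITPR3*. The sign also turned for *ATP2A2* without both replicate 3 arrays (0.03, with and without the block) and for *ITPR1* and *ITPR2* with equal array medians (-0.01 each), none of them called. The brightest probe sets of *ATP2A3* and *STIM1* lie below the filter at the median, so this filter gave no value for them. Dim probe sets understate folds.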
